A study of Mus musculus with 20 samples.

Results

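Mitotic CD8 T cells are tumour-infiltrating CD8 T cells that carried messenger RNA of the machinery of chromosome replication and division. They were picked by UMIs (unique molecular identifiers, each marking 1 captured RNA molecule) of 6 genes made in dividing cells, Mki67, Top2a, Birc5, Ube2c, Cenpf and Ccna2, of which a cell had to hold at least 4 in sum. Before that gate, a barcode had to show at least 500 genes, at most 10% of its UMIs on mitochondrial genes, at least 3 UMIs of Cd3d, Cd3e and Cd3g, at least 1 UMI of Cd8a and Cd8b1, under 5 UMIs of the macrophage genes C1qa, C1qb, C1qc and Lyz2, and under 10 UMIs of the melanocyte genes Mlana, Pmel, Dct and Tyrp1. Of 7398 cells that passed the first 2 limits, 4930 were CD8 T cells, and 1894 of these were mitotic. The remaining 3036 are called the other CD8 T cells. The gate is a cut on a sum of UMIs, so the mitotic cells are a range of cells and not a separate type, and every difference from the other CD8 T cells is a description of that choice.

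The study asks what the DNA-demethylating enzyme Tet2 does in T cells that act against a tumour. The 4 single-cell libraries hold CD8+ tumour-infiltrating lymphocytes, collected on day 8 after transfer, and all donor T cells carried OT-I, a transgenic receptor for an ovalbumin peptide. The recipients bore B16-OVA, a mouse melanoma line that makes ovalbumin. Donors were wild-type OT-I mice or OT-I mice crossed to Tet2-/-, and recipients were left without treatment or received an antibody against PD-L1, which tumour and myeloid cells use to engage the PD-1 receptor of T cells. The labels give wild-type or TET2 knockout as the genotype, and they name no promoter, Cre or deleted part for the allele, no animal age or sex and no number of mice per library. Whether CD8 T cells of the recipients themselves are among the cells is not given in the sources used here, and the OT-I receptor segments were not analysed. Each of the 4 groups is 1 library, so no difference between groups has a replicate check, no p-value is given, and 95% intervals cover counting error only. The 16 bulk samples of the series were not analysed here.

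A dividing cell copies its DNA in S phase, condenses the copies, lines them up on a spindle of microtubules and separates them in mitosis. Replication genes such as the Mcm helicase subunits are transcribed first, driven by E2F factors, and mitosis genes such as Ccnb1, Plk1 and Cdc20 peak later, driven through a complex of MuvB with B-Myb and FoxM1. In quiescent cells the DREAM complex holds mitosis genes silent through a promoter element called the CHR (cell cycle genes homology region), often with CCAAT boxes near it. Antigen-activated CD8 T cells divide quickly, and in tumours dividing cells are found both among progenitors and among cells with effector and inhibitory receptor genes.

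The promoter element is shown here because it was found in many of the genes that marked these cells. Windows are printed only for genes with a match, and the same search found none in Birc5, Ccnb1, Nuf2 and Mxd3. The 30-base windows lie on GRCm38.p6, are taken from RefSeq promoters, and are written 5′ to 3′ on the gene's own strand, with the CHR (TTTGAA or TTCGAA, or its reverse complement) in capitals. Mki67, a coat protein of mitotic chromosomes, Top2a, the topoisomerase that untangles DNA, Ube2c, the ubiquitin-conjugating enzyme of the anaphase-promoting complex, and Cenpf, an outer kinetochore protein, are gate genes. Plk1 and Cdk1 are mitotic kinases, Cdc20 activates the anaphase-promoting complex, and Hmmr is a spindle protein.
Mki67, chr7:135716460-135716489, - strand: ccgccgttttggTTTGAAtcgggcgggctg
Top2a, chr11:99024195-99024224, - strand: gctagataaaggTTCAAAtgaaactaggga
Ube2c, chr2:164769888-164769917, + strand: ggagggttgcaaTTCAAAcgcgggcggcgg
Cenpf, chr1:189688067-189688096, - strand: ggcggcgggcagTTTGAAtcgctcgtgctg
Plk1, chr7:122159453-122159482, + strand: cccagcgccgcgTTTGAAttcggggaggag
Cdc20, chr4:118437344-118437373, - strand: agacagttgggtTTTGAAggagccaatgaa
Hmmr, chr11:40733412-40733441, - strand: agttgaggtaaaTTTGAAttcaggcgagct
Cdk1, chr10:69352910-69352939, - strand: taccgcggcgagTTTGAAactgctggcact

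The whole windows of Ube2c and Cdk1, each 250 bases before to 50 after the RefSeq start, show how the elements sit together, with CHR, CCAAT (or ATTGG) and E2F matches (TTCCCGC or TTGGCGC, or the reverse complement) in capitals. Ube2c holds 1 CHR match and 6 CCAAT matches, 1 pair of which overlaps on both strands, and no E2F match, and Cdk1 holds 2 CHR, 3 CCAAT and 1 E2F match.
Ube2c promoter, chr2:164769679-164769978, + strand: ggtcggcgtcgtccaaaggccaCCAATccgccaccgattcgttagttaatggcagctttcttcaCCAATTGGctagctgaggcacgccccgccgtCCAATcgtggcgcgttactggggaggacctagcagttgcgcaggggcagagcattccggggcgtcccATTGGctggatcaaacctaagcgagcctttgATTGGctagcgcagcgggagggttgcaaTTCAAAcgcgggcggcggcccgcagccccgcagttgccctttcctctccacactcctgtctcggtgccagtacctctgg
Cdk1 promoter, chr10:69352863-69353162, - strand: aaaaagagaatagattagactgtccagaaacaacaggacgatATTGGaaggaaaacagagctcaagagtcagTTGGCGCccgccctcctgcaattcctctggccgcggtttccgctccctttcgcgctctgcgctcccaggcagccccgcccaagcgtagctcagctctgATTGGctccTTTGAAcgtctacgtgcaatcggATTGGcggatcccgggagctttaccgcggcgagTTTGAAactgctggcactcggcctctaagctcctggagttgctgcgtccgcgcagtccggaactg

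Values of the 4 libraries are given in the order wild-type untreated, wild-type anti-PD-L1, labelled-knockout untreated and labelled-knockout anti-PD-L1. The tables hold between 11835704 and 16209103 UMIs per library, and the mitotic cells had median UMIs of 4962, 9323, 6532 and 10868 against 3032, 4616, 3525 and 5617 in the other CD8 T cells. Tet2 had 12.8, 12.7, 22.7 and 18.6 CPM (counts per 1000000 UMIs summed over the cells of a library) in mitotic cells and 15.5, 17.5, 23.8 and 16.9 CPM in the other CD8 T cells. In mitotic cells Tet2 was thus not lower in the libraries labelled knockout. In the other CD8 T cells it was higher untreated (23.8 against 15.5 CPM) and near equal with anti-PD-L1 (16.9 against 17.5 CPM). These values do not bear out the label, but a 3′ count cannot decide it. Reads outside the deleted part check nothing, and that part is not given in the sources used here. The 2 libraries labelled knockout are therefore called labelled-knockout throughout, and each direction between genotypes rests on the label alone. Y-linked genes had a UMI in 12.4, 16.97, 0.315 and 0% of mitotic cells, where 0 of 347 cells in the last library allows up to 0.865%, and Xist, made from the silenced X chromosome, in 70.6, 76.4, 99.2 and 98.3%. Both wild-type libraries thus held cells with Y-linked UMIs, and genotype and this difference in make-up cannot be told apart across all cells.

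The wild-type untreated library stood apart. Cells picked as macrophages in it passed the 4-UMI gate in 13.5% of cases, against 3.31% to 9.56% in the other 3 libraries. With every cell cut down at random to 2600 UMIs, such macrophages held 1.29, 0.216, 0.367 and 0.407 gate UMIs on average, the other CD8 T cells 1.02, 0.139, 0.364 and 0.188 and the mitotic cells 4.85, 4.42, 4.85 and 4.43. Free RNA from dividing cells gives UMIs in droplets of other cells, and its part in the wild-type untreated values was not tested. Of the other CD8 T cells, 33.4% had no gate UMI there, against 63.3% to 77.1% elsewhere. Melanoma markers summed to 119 CPM in its mitotic cells and to 17.1 to 30.1 in those of the other libraries, and 37.8% of its mitotic cells held a UMI of the 4 melanocyte genes of the rule, against 13.3% to 13.9%. Results that rest on this library are given beside the comparisons that do not use it. Any pair of libraries shared 1 to 10 barcodes, and at most 1 mitotic one.

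T cell genes were found throughout. All 9 T cell markers, of which the rule used 3, and both Cd8 genes were found in the mitotic cells of every library, at summed levels of 9446 to 10281 and 1147 to 1428 CPM. Markers of other lineages were low beside these. Those of macrophages summed to 97.1 to 152 CPM in mitotic and 151 to 209 in other CD8 T cells, those of B cells to 2.95 to 9.88 and those of CD4 and regulatory T cells to 2.62 to 14.4 CPM in mitotic cells. NK markers summed to 75.2 to 204 CPM in mitotic cells. Of the 7 listed NK genes, 5, 5, 5 and 4 had a UMI there, and the receptor genes Ncr1 and Klra8 had none in all 4 libraries. Dendritic cell markers summed to 122, 149, 118 and 134 CPM in mitotic and to 117 to 199 CPM in other CD8 T cells. No doublet caller was run, and pairs of cells in a droplet remain among cells with many UMIs.

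The median mitotic cell held UMIs of 4, 5, 4 and 5 of the 6 gate genes, and 12.2, 30.6, 19.7 and 37.2% of mitotic cells held all 6. Birc5 (chr11:117849237-117855743 in RefSeq on GRCm38.p6), the survivin subunit of the complex that corrects spindle attachments, had a UMI in 92.4, 90.3, 92.9 and 97.7% of mitotic cells. Top2a had one in 80.1, 89.1, 85.4 and 88.2% and Ube2c in 71.1, 70.3, 66.8 and 72.3%. Cenpf was the most rarely seen of the 6, in 43.1, 53.3, 44.6 and 52.7%. Mki67, the gene behind the Ki-67 stain, had a UMI in 50.7, 74.2, 66.3 and 80.1% of mitotic cells, fewest in wild-type untreated, the library of lowest median depth. In summed RNA the libraries lay closer together, with Mki67 at 149.9, 163, 179 and 164 CPM and Top2a at 361, 376, 448 and 348 CPM. The median number of gate UMIs in a mitotic cell was 8, 13, 10 and 15. At the edge of the rule, 86, 18, 52 and 21 cells held exactly 4 gate UMIs and 79, 25, 60 and 22 cells held 3. Cdk1 stood at 103, 75.5, 89.98 and 42.9 CPM in cells with 4 and at 104, 40.05, 40.3 and 38.7 CPM in cells with 3, so the values on both sides of the cut were near each other in 2 of the 4 libraries.

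Mitotic cells made up the largest share of CD8 T cells in wild-type untreated and the smallest in wild-type anti-PD-L1. In wild-type untreated, 582 of 1085 CD8 T cells were mitotic, which is 53.6% (exact binomial 95% interval 50.6 to 56.6). In wild-type anti-PD-L1 the share was 25.4% (23.1 to 27.9), 330 of 1297. In labelled-knockout untreated it was 41.5% (38.99 to 43.99), 635 of 1531, and in labelled-knockout anti-PD-L1 34.1% (31.2 to 37.1), 347 of 1017. Both treated libraries thus had the lower share, and the gap was 53.6% against 25.4% in wild-type and 41.5% against 34.1% in labelled-knockout. The treated libraries also had the deeper cells, which eases passing the gate. With each cell thinned to 2600 UMIs, which left out 202, 69, 140 and 21 cells, the shares were 38.2, 15.8, 26.6 and 18.5%, in the same order from high to low. The intervals of the thinned shares overlapped between wild-type anti-PD-L1 (13.8 to 17.96) and labelled-knockout anti-PD-L1 (16.1 to 21.03), and those of the other pairs did not. At this depth 12.7, 2.70, 3.24 and 3.70% of macrophage-rule cells passed the same gate.

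**Figure D1:**
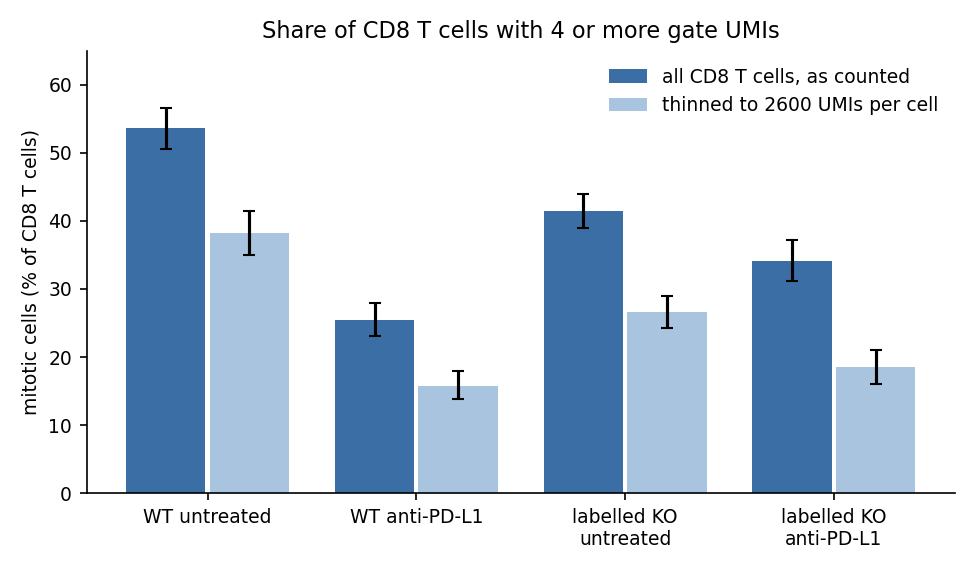
Mitotic cells as a percentage of CD8 T cells in each library (y axis), as counted and after thinning each cell to 2600 UMIs; bars are 1 library each and error bars are exact binomial 95% intervals. The wild-type untreated bars are the highest at 53.6% and 38.2%, and the wild-type anti-PD-L1 bars the lowest at 25.4% and 15.8%.

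Against the other CD8 T cells of the same library, the mitotic cells held more RNA of most of the listed mitosis genes, which is the contrast the gate itself made and is given as a description. Of 4621 genes past a floor of 20 CPM, on the mean of the 8 values and with the gate genes left out, 110 (2.38%) were at least 1.5-fold higher in all 4 libraries and 36 (0.779%) at least 1.5-fold lower. Of those 110, 64 belong to the lists of replication and mitosis genes. The shares of all genes, 2.38% and 0.779%, stand beside every list count given below for this contrast. The wild-type untreated library had the smallest folds for most of these genes, and without it 227 genes were higher and 97 lower. Among cells thinned to 2600 UMIs, 16 genes were lower, and only 8 of these were among the 36. Summed RNA per cell type cannot tell more cells with a transcript from more transcript per cell.

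The list of mitotic kinases and entry, which also holds genes that are no kinases, such as Ccnb1, stood out furthest as a group. Of 12 listed genes past the floor, 11 were higher and 0 lower, with a median log2 fold of 2.94, beside 0.03 over all genes. Plk1, which drives centrosome maturation and mitotic entry, had 106, 44.2, 48.96 and 58.2 CPM in mitotic and 17.3, 1.63, 2.29 and 3.03 CPM in other CD8 T cells. The level in the mitotic cells was thus highest in wild-type untreated, and in each library it was above that of the other cells, with log2 folds of 2.62, 4.76, 4.42 and 4.26. Cdk1, the kinase of mitotic entry, had 204, 150.1, 143 and 165 CPM against 64.3, 11.02, 20.3 and 15.4. Ccnb1, the cyclin B1 that activates Cdk1, had 154, 73.8, 92.1 and 102 CPM against 55.4, 6.53, 10.03 and 8.33. All 3 were at least 1.5-fold higher in the mitotic cells of every library. After thinning, Cdk1 had a UMI in 37.8, 29.2, 30.6 and 30.9% of mitotic cells, 15.7, 2.34, 4.82 and 2.15% of other CD8 T cells and 16.4, 2.70, 4.68 and 3.70% of macrophage-rule cells. The share in the other CD8 T cells was thus close to or under that in macrophage-rule cells, and no expression is read from it.

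Spindle and kinetochore genes were next. Of 19 spindle and cytokinesis genes, 16 were higher and 0 lower (median log2 fold 2.37), and of 20 kinetochore and centromere genes 14 were higher and 0 lower (2.07). Nuf2, a subunit of the Ndc80 complex that holds microtubules at the kinetochore, had 41.2, 37.1, 37.3 and 40.4 CPM in mitotic cells and 17.9, 0.612, 3.73 and 0.505 CPM in other CD8 T cells. The mitotic levels lay within a narrow range, whereas the level in other cells of wild-type untreated was far above the rest, so that the log2 fold was 1.21 (95% interval 0.62 to 1.83) there and 5.92 (95% interval 4.34 to 8.22), 3.32 (95% interval 2.51 to 4.26) and 6.32 (95% interval 4.45 to 9.38) in the others. The median log2 folds over the 4 libraries were 4.22 for Hmmr, 4.08 for Nusap1, which bundles spindle microtubules, 3.41 for Kif11, the kinesin that pushes spindle poles apart, 3.88 for Tpx2, the activator of Aurora A on the spindle, and 3.74 for Cenpe, the kinetochore motor. Mxd3, a member of the Max network of transcription factors that is in none of the lists, had 36, 35.8, 43.8 and 35.2 CPM against 8.34, 1.02, 1.72 and 1.51, a median of 4.60.

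Chromatin condensation and exit from mitosis gave the same picture with smaller folds. Of 18 condensin and mitotic chromatin genes, 9 were higher and 0 lower (median 1.35), and of 13 genes of the anaphase-promoting complex and mitotic exit 9 were higher and 0 lower (1.73). Cdc20 had 231, 114, 128 and 131 CPM in mitotic cells and 81.6, 8.16, 17.2 and 11.6 in other CD8 T cells. Pttg1, the securin that holds sister chromatids together until anaphase, was not part of the pattern: it had 68.4, 75.3, 67.4 and 85.4 CPM in mitotic and 81.03, 80.2, 68.5 and 81.3 CPM in other CD8 T cells, a median log2 fold of -0.06.

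Replication genes differed much less between the mitotic and the other CD8 T cells. Of 36 licensing and fork genes 2 were higher and 0 lower in all 4 libraries (median log2 fold 0.83), and of 22 genes of deoxynucleotide supply 2 and 0 (0.63). Pcna, the sliding clamp of the replication fork, had 121, 106, 106 and 133 CPM in mitotic cells and 107, 54.5, 62.5 and 76.99 CPM in other CD8 T cells. Mcm5, a subunit of the replicative helicase, had 169, 122, 157 and 147 CPM against 172, 62.2, 105 and 93.9. In wild-type untreated the levels of both genes were near equal in the 2 sets of cells, with log2 folds of 0.18 and -0.03, and in the other libraries mitotic cells were higher, by 0.58 to 0.97. None of the 11 G1 cyclin, E2F and Rb genes past the floor passed in either direction (median 0.36). Ccnd2, a D cyclin of early G1, had 109, 125, 171 and 157 CPM in mitotic and 126, 273, 294 and 313 CPM in other CD8 T cells. Of 4 replication-dependent histone genes past the floor 1 was higher (median 1.05). Their RNA mostly lacks the poly(A) tail that 3′ chemistry primes on, so histone values say little.

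Inhibitors of the cell cycle split. Among 17 CDK inhibitor and quiescence genes, 2 were higher and 1 lower (median -0.35). The higher ones were Cdkn2c, with 53.7, 80.3, 68.3 and 84.2 CPM against 28.6, 22.4, 22.6 and 21.2, and Cdkn2d, with 134, 108, 172 and 121 against 75.7, 52.03, 68.5 and 49.5, which encode the Cdk4 and Cdk6 inhibitors p18 and p19. The lower one was Tob1, an antiproliferative gene of resting T cells, with 4.58, 24.7, 13.3 and 22.5 CPM against 7.75, 41.4, 20.6 and 34.8. Btg1, of the same family, had 190.4, 479, 349 and 414 CPM against 263, 979, 671 and 765, lower in mitotic cells of each library but short of 1.5-fold in wild-type untreated.

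**Figure D2:**
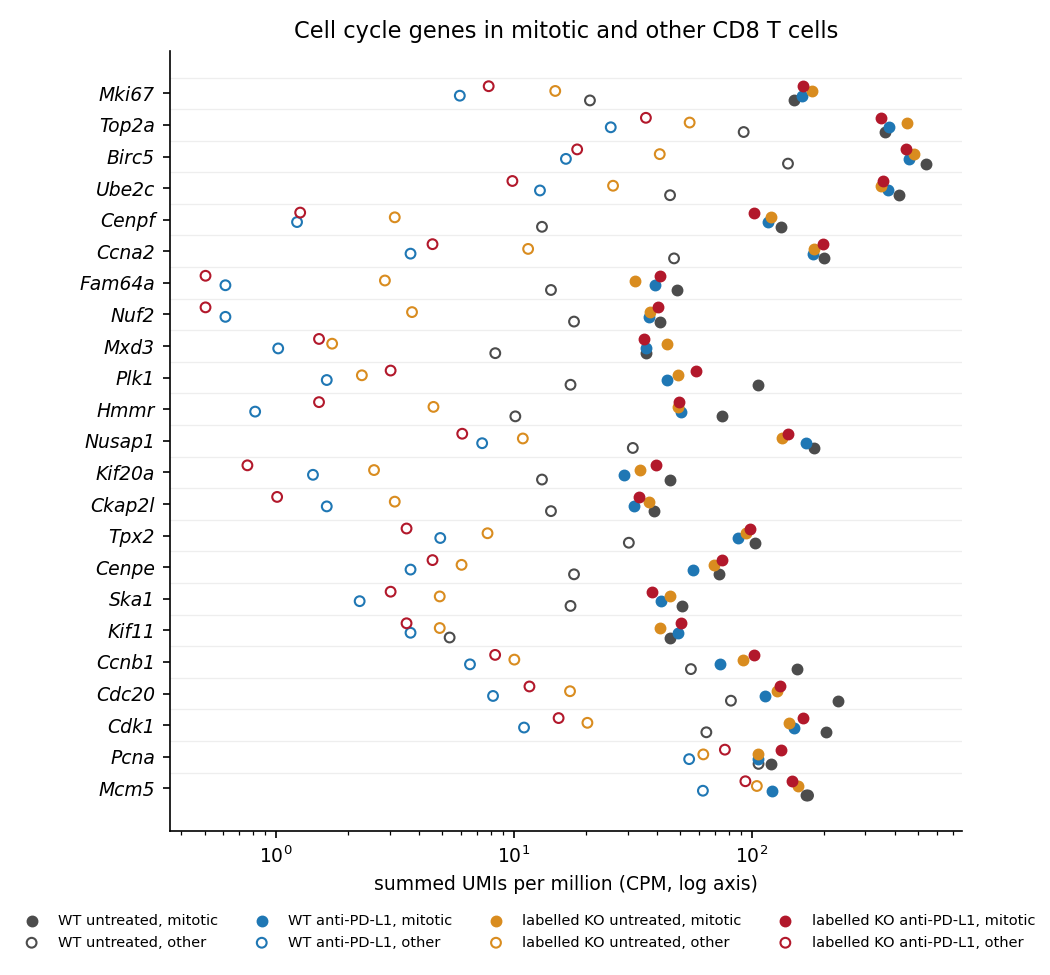
Summed level of cell cycle genes in mitotic and other CD8 T cells of each library (x axis, CPM, log scale); each point is 1 library, filled for mitotic and open for other cells. Plk1 lies at 106, 44.2, 48.96 and 58.2 CPM in mitotic cells and at 17.3, 1.63, 2.29 and 3.03 in other cells, whereas Pcna lies at 121, 106, 106 and 133 and 107, 54.5, 62.5 and 76.99.

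A few effector and chemokine genes were lower in mitotic cells than in the other CD8 T cells of every library. Of the 7 cytokines and chemokines past the floor, 0 were higher and 2 lower in all 4 libraries, with a median log2 fold of -1.81. Ccl5, a chemokine of effector and memory CD8 T cells, had 350.5, 1852, 951 and 1713 CPM in mitotic and 735, 7192, 3659.6 and 6958 CPM in other CD8 T cells, and Ccl9 had 16.03, 6.79, 5.17 and 11.1 against 44.1, 60.6, 70.5 and 98.2. Both were lower in every library, least so in wild-type untreated. Ifng, the gene of interferon gamma, had 122, 141, 113 and 193 CPM against 182, 403, 328 and 657, and Ccl4, made on stimulation, 277, 488, 229 and 497 against 352, 2283, 1005 and 2888. These 2 were lower too but missed 1.5-fold in 1 and 1 of the 4 libraries, the wild-type untreated one in both cases. After thinning, Ccl4 had a UMI in 39.1, 50.5, 28.1 and 51.1% of macrophage-rule cells, against 19.5, 28.9, 18.8 and 30.3% of mitotic cells and 25.4, 37.8, 33.6 and 46.3% of other CD8 T cells, so macrophage-rule cells held it more widely than mitotic cells in every library.

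Among 14 cytotoxic effector genes 0 were higher and 2 lower (median -0.52), where 2.38% of all genes were higher and 0.779% lower (median 0.03). Gzma (chr13:113093824-113100981), the gene of granzyme A, had 13.1, 479, 126 and 263 CPM in mitotic cells and 66.1, 978, 645 and 1120.5 CPM in other CD8 T cells, log2 folds of -2.34, -1.03, -2.36 and -2.09. Ctla2a, a protease inhibitor of activated T cells, had 89.01, 303, 172 and 272 CPM against 142, 537, 322 and 435. Gzmb, the gene of granzyme B, had 1259.8, 1652, 1009.8 and 2200.0 CPM in mitotic cells and 1465, 2321, 1944 and 3181 CPM in other CD8 T cells. It was lower in each library too, but by 1.5-fold or more only in labelled-knockout untreated. After thinning, Gzma had a UMI in 3.01, 17.6, 8.65 and 13.9% of mitotic and 3.13, 28.5, 19.04 and 28.5% of other CD8 T cells, and in at most 0.909% of macrophage-rule cells. Of 9 exhaustion genes 0 were higher and 1 was lower (median -0.39), namely Havcr2, which encodes the inhibitory receptor TIM-3, with 15.1, 40.1, 15.05 and 37.4 CPM against 42.3, 70.4, 38.4 and 88.1. Pdcd1, the gene of PD-1, had 293, 336, 179 and 310.3 CPM in mitotic and 359, 437, 323 and 410.4 CPM in other CD8 T cells, and Lag3 222, 338, 260.1 and 336 against 304, 537, 479 and 614.

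Of 18 homing and adhesion genes 0 were higher and 3 lower, where 0.779% of all genes were lower. The 3 were Cxcr6, the receptor for Cxcl16, and the small proteins Lgals3 and S100a6. Cxcr6 had 56.3, 167, 73.9 and 209 CPM in mitotic and 91.2, 418, 225 and 415 CPM in other CD8 T cells. Zeb2, a transcription factor of terminal effectors, was the 1 lower gene among 10 effector and residency factors, with 12.4, 30.3, 20.2 and 27.98 CPM against 20.3, 59.8, 36.1 and 50.99. Of progenitor and memory genes 0 were higher and 0 lower of 15 (median -0.21), a count near the 2.38% and 0.779% of all genes. Tcf7, the factor of progenitor T cells, had 88.7, 61.1, 94.6 and 36.7 CPM in mitotic and 116, 52.2, 80.2 and 36.9 CPM in other CD8 T cells, and Slamf6 102, 57.7, 73.7 and 26 against 123, 51.8, 64.8 and 30.04. None of 17 early activation and 17 interferon response genes passed in either direction. Globin RNA also differed, with 64.1, 40.8, 28.5 and 17.1 CPM in mitotic cells, but in the other CD8 T cells 81.2, 96.6, 97.9 and 96.9% of it lay in 2, 2, 3 and 1 cells, and without those the level there was 54.8, 36.9, 22.1 and 16.7 CPM.

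**Figure D3:**
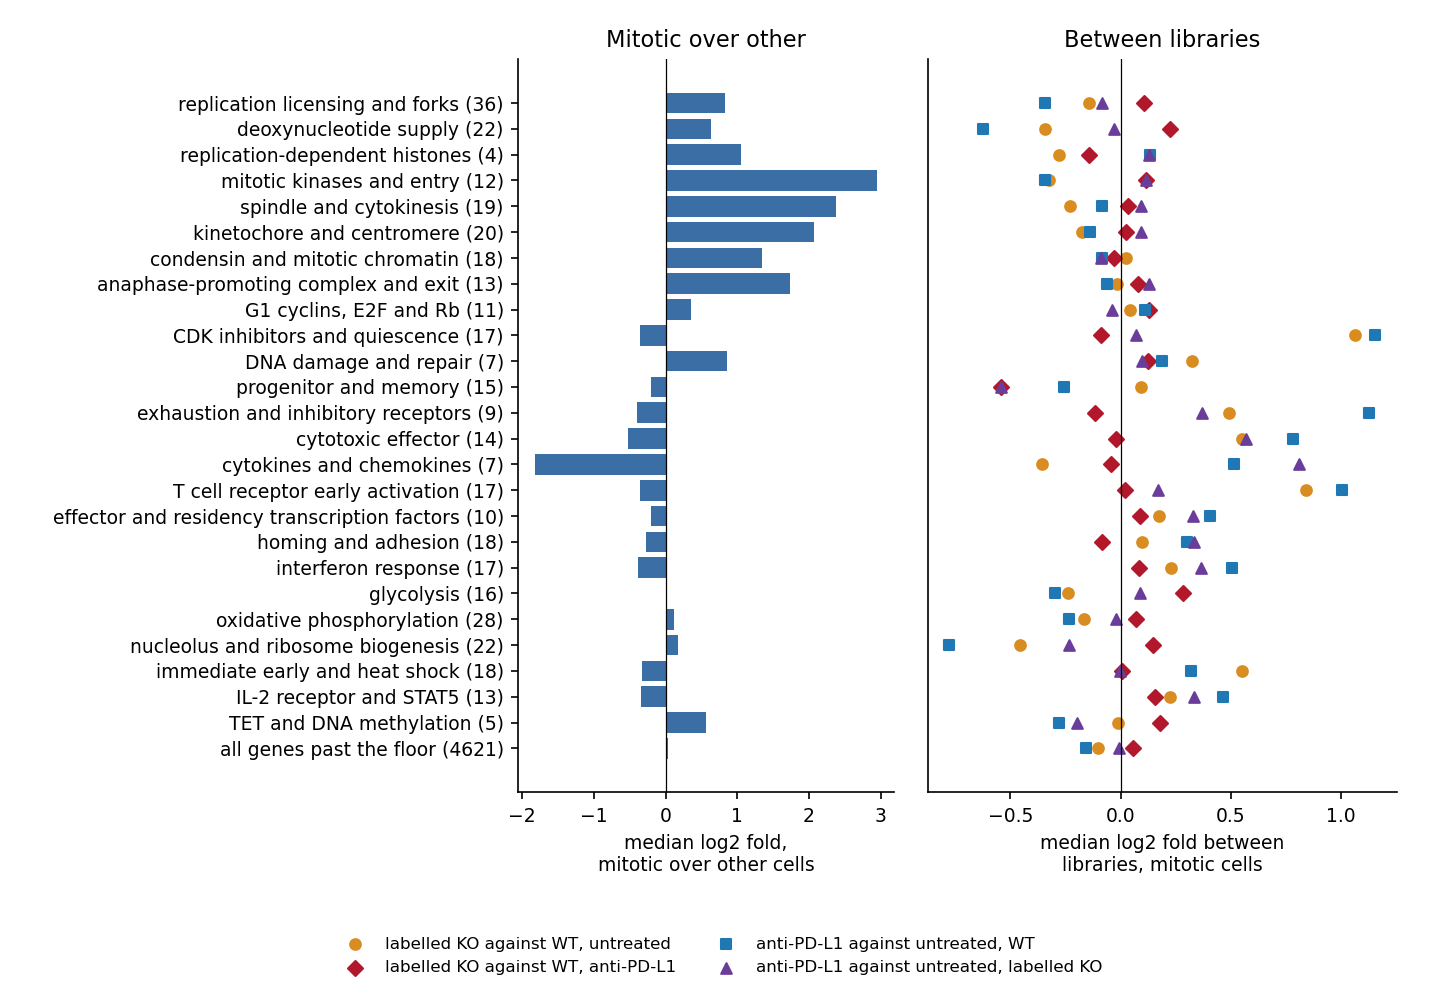
Median log2 fold of each gene list (x axes) in mitotic over other CD8 T cells, as the median over 4 libraries per gene (left), and between libraries within mitotic cells (right); the number in brackets is the count of listed genes past the floor in the left panel. The list of mitotic kinases and entry reaches 2.94 on the left, where the cytokines and chemokines reach -1.81. On the right the quiescence list stands at 1.06 and 1.16 in the 2 comparisons that use wild-type untreated.

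Within the mitotic cells, RNA of 67 replication genes was set against RNA of 96 mitosis genes, with the gate genes left out and each cell thinned to 2600 UMIs. More mitosis than replication UMIs were found in 80.6, 82.1, 81.6 and 80.3% of 532, 329, 624 and 346 mitotic cells, so the make-up by this measure was alike across the libraries, with intervals from 75.8 to 86.1% at their widest. In the other CD8 T cells the share was 47.6, 49.9, 39.5 and 47.1%. The median mitotic cell held 22, 15, 18 and 17 replication UMIs and 36, 34, 33 and 34 mitosis UMIs. The median other CD8 T cell held 20, 5, 9 and 7 and 19, 6, 8 and 7, so only in wild-type untreated did it carry nearly as many replication UMIs as a mitotic cell. A UMI of Ccnb1, Plk1 or Cdc20, which peak late, was present in 60.7, 36.8, 43.8 and 42.8% of mitotic and 28.5, 3.67, 4.69 and 5.23% of other CD8 T cells. Cdc20 alone had one in 6.36, 1.80, 1.08 and 2.22% of macrophage-rule cells of that depth and in 37.6, 22.5, 25.2 and 24.6% of mitotic cells.

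**Figure D4:**
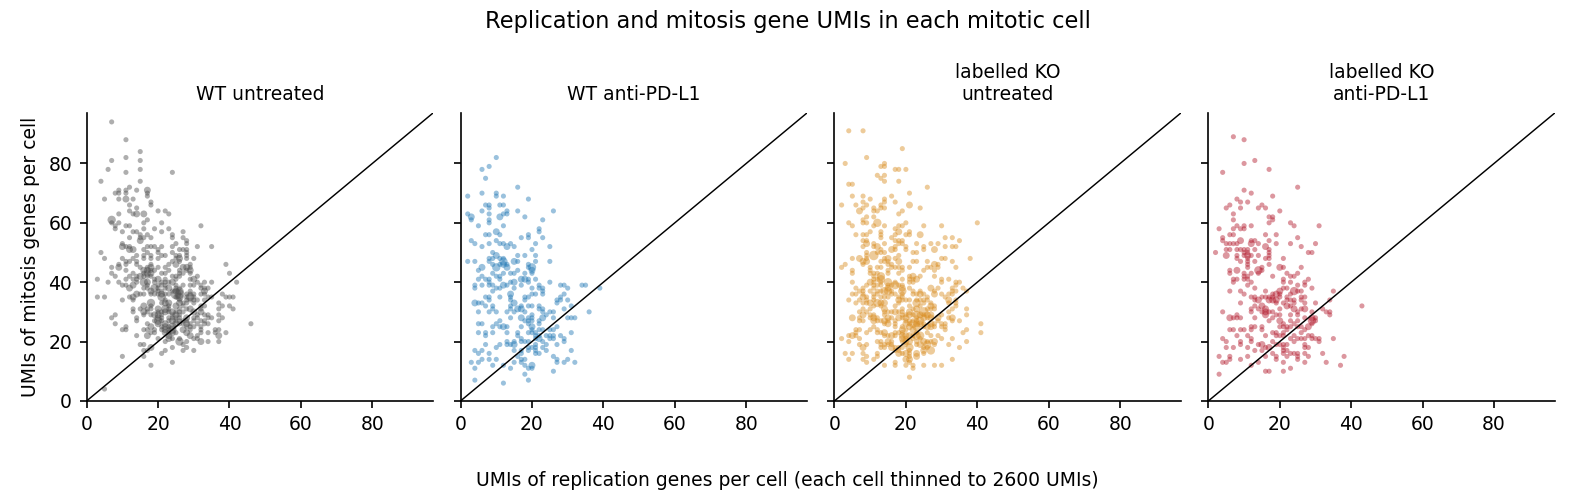
UMIs of 67 replication genes (x axis) and 96 mitosis genes (y axis) in each mitotic cell after thinning to 2600 UMIs, 1 panel per library; larger points are several cells and the line marks equal counts. Most points lie above the line in each panel, 80.6, 82.1, 81.6 and 80.3% of cells.

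The gate genes themselves were spread unevenly along this axis. Cells leaning to replication, 88, 55, 106 and 64 of them, were compared with 429, 270, 509 and 278 cells leaning to mitosis, whose median UMIs before thinning were 5587, 9965, 7678 and 11877 and 5051, 9055, 6363 and 10594. Ube2c and Cenpf were the most shifted to the mitosis side, with median log2 folds of 2.74 and 2.34 over the libraries. Birc5 (1.03), Ccna2 (0.90) and Mki67 (0.74) were shifted less, and Top2a least (0.37). Plk1 (1.90) and Mcm5 (-0.81) help to define the split, so their values are no finding.

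The promoters of these genes were searched on both strands in the RefSeq table of 27025 genes on GRCm38.p6, which held 87 of the 110 genes higher in mitotic cells and 5 of the 6 gate genes. A CHR was present in 41 of the 87 (47.1%), in 55.6% of 54 mitosis-list genes and in 18.4% of 49 replication-list genes. The share was 19.4% of all promoters, 14.8% of 3595 genes past the floor and 14.3% of 28 genes lower in mitotic cells. The replication genes had the E2F letters more often, in 46.9% against 14.8% of the mitosis-list genes, 13.99% of genes past the floor and 6.93% of all promoters. CCAAT was common everywhere, in 72.2% of mitosis-list, 67.3% of replication-list and 37.9% of all promoters. CHR and CCAAT stood in 1 window in 48.1% of mitosis-list genes and 7.70% of all. A match of letters is a description of the window and shows no binding.

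Mitotic cells were then compared between libraries, with a gene called when its mean was at least 20 CPM, its fold at least 1.5 and its UMIs came from at least 10 cells. In the untreated pair, 292 of 4631 genes (6.31%) were higher and 377 (8.14%) lower in labelled-knockout than in wild-type, and in the anti-PD-L1 pair 52 of 4620 (1.13%) were higher and 82 (1.77%) lower. With anti-PD-L1 against untreated, 401 of 4626 (8.67%) were higher and 730 (15.8%) lower in wild-type, and 150 of 4631 (3.24%) higher and 70 (1.51%) lower in labelled-knockout. Both comparisons that include the wild-type untreated library thus had the most calls. In the other CD8 T cells 376 (8.3%) were higher and 489 (10.8%) lower in the untreated genotype pair, 74 (1.64%) and 76 (1.69%) in the treated pair, 562 (12.4%) and 994 (21.9%) with treatment in wild-type, and 168 (3.69%) and 91 (2.0%) in labelled-knockout. With TMM factors instead of total UMIs as the scale, the first 3 splits in mitotic cells were 334 and 276, 31 and 104, and 509 and 481, and this moved the median of all genes for treatment in wild-type from -0.15 to -0.04 on the log2 scale. In cells with an Xist UMI and no Y-linked UMI, the genotype comparisons gave 295 and 378 untreated and 62 and 75 with anti-PD-L1.

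Genes of the list of mitotic kinases and entry were called between the mitotic cells of the libraries about as often as all genes. From this list, 0 were higher and 2 lower out of 16 (median log2 fold -0.32) in the untreated genotype pair. In the treated pair 0 were higher and 0 lower out of 15 (median log2 fold 0.12). With treatment, 1 was higher and 3 lower out of 16 (median log2 fold -0.34) in wild-type. In labelled-knockout, 0 were higher and 1 lower out of 15 (median log2 fold 0.11) with treatment. Of all genes, 6.31% were higher and 8.14% lower in the first of these comparisons and 8.67% and 15.8% in the third, so nothing particular to the list is read from the counts. Plk1, Ccnb1 and Cdc20 were highest in wild-type untreated, and with treatment in wild-type their log2 folds were -1.27 (95% interval -1.56 to -0.98), -1.07 (95% interval -1.30 to -0.84) and -1.02 (95% interval -1.20 to -0.83). In labelled-knockout the same folds were 0.25 (95% interval -0.02 to 0.52), 0.15 (95% interval -0.05 to 0.35) and 0.03 (95% interval -0.14 to 0.20). Spindle genes gave 0 higher and 1 lower of 27, 0 and 0, 0 and 3, and 2 and 0, so the comparisons without wild-type untreated held 2 calls in all. In the other CD8 T cells the replication list was lower with treatment in wild-type, 0 higher and 31 lower of 34 (median -1.36), whereas in mitotic cells it gave 0 and 7 of 39 (-0.34). Of all genes, 21.9% were lower with treatment in the other CD8 T cells of wild-type and 15.8% in its mitotic cells.

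On the scale of total UMIs, most nucleolar and deoxynucleotide genes were called lower with anti-PD-L1 in the mitotic cells of wild-type. Of nucleolus and ribosome biogenesis genes, 0 were higher and 19 lower out of 22 (median log2 fold -0.78) with treatment in wild-type and 0 were higher and 4 lower out of 22 (median log2 fold -0.46) in labelled-knockout against wild-type, untreated. The same list gave 0 and 0 in the treated genotype pair (0.15) and 0 and 0 with treatment in labelled-knockout (-0.23). Ncl, the nucleolin gene, had 1401, 717, 902 and 755 CPM, and Nop58, a core protein of the particles that methylate ribosomal RNA, 212, 87.7, 91.6 and 86.4 CPM. In both genes wild-type untreated was thus above the other 3 libraries. Deoxynucleotide supply gave 1 higher and 5 lower of 23 in the untreated genotype pair and 0 and 15 of 23 with treatment in wild-type, and no call in the other 2 comparisons. Its median log2 fold with treatment in wild-type was -0.63, near the 1.5-fold limit. With TMM factors, lower calls over all genes there fell from 730 to 481, and this list was not counted anew. Over all genes, 8.14% were lower in the untreated genotype pair and 15.8% with treatment in wild-type.

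Most quiescence and early activation genes were called higher in both comparisons made against the mitotic cells of wild-type untreated. Of CDK inhibitor and quiescence genes, 11 were higher and 0 lower out of 16 (median log2 fold 1.06) in labelled-knockout against wild-type, untreated, and 11 were higher and 0 lower out of 15 (median log2 fold 1.16) with treatment in wild-type. In the comparisons without that library the counts were 0 and 3 (-0.09) and 0 and 2 (0.07). Over all genes, 6.31% were higher in the untreated genotype pair and 8.67% with treatment in wild-type. In the comparisons without wild-type untreated, 1.13% and 3.24% of all genes were higher and 1.77% and 1.51% lower. Cdkn1a, the gene of the CDK inhibitor p21, had 10.1, 64.8, 41.1 and 54.2 CPM and Btg2, an antiproliferative gene, 94.9, 378, 272 and 328 CPM. Of early activation genes, 10 were higher and 2 lower out of 17 (median log2 fold 0.84) in the untreated genotype pair, and 10 were higher and 0 lower out of 16 (median log2 fold 1.00) with treatment in wild-type, against 0 and 2 and 2 and 0 in the others. Nr4a1 (chr15:101253902-101274795), an immediate target of the T cell receptor, had 25.9, 154, 133 and 162 CPM, and its log2 fold in the untreated genotype pair was 2.37 (95% interval 2.02 to 2.72). Fosl2, an AP-1 subunit, had 4.58, 80.3, 61.3 and 73.3 CPM, and Gadd45b, a stress-response gene, 9.49, 155, 113 and 170.1 CPM. In each of these 5 genes wild-type untreated was the only low library, by at least 2.87 times. Its other CD8 T cells were low as well, with Nr4a1 at 19.1, 263, 163 and 228 CPM and Fosl2 at 11.9, 123, 86.8 and 107 CPM, so the gap between libraries was not confined to mitotic cells.

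Several effector genes were higher with anti-PD-L1 in the mitotic cells of both genotypes, a pair of comparisons that share no library. Of cytotoxic genes, 9 were higher and 1 lower out of 14 (median log2 fold 0.78) in wild-type and 6 were higher and 0 lower out of 13 (median log2 fold 0.57) in labelled-knockout. Over all genes, 8.67% were higher and 15.8% lower in wild-type, and 3.24% and 1.51% in labelled-knockout. Gzma had 13.1, 479, 126 and 263 CPM in mitotic cells, with log2 folds for treatment of 5.19 (95% interval 4.74 to 5.68) in wild-type and 1.06 (95% interval 0.92 to 1.21) in labelled-knockout. Both treated libraries lay above both untreated ones, and wild-type untreated was far below the rest. Ccl5 had 350.5, 1852, 951 and 1713 CPM, with folds of 2.40 and 0.85, and Cxcr6 56.3, 167, 73.9 and 209 CPM, with folds of 1.57 (95% interval 1.32 to 1.83) and 1.5 (95% interval 1.31 to 1.68). Havcr2 had 15.1, 40.1, 15.05 and 37.4 CPM, with both treated libraries again above both untreated ones and folds of 1.41 and 1.31. Gzmc, another granzyme gene, went opposite ways: its 300.4, 124, 24.9 and 74.3 CPM gave folds of -1.28 in wild-type and 1.58 in labelled-knockout, a difference that was not tested. Few cells carried much of it, since 1 mitotic cell held 58.6% of its UMIs in labelled-knockout untreated and 1 held 40.3% in labelled-knockout anti-PD-L1. Without the cell of each library that held most, Gzmc had 258, 108, 10.4 and 44.5 CPM and folds of -1.25 and 2.10.

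Interferon-inducible membrane protein genes were higher with treatment too. Ifitm1 had 6.22, 169.5, 19.5 and 104 CPM, with log2 folds of 4.77 (95% interval 4.11 to 5.51) in wild-type and 2.42 (95% interval 2.08 to 2.77) in labelled-knockout, and Ifitm3 had 23.9, 97.6, 40.4 and 148 CPM. Of the interferon response list, which does not hold them, 7 were higher and 0 lower out of 16 (median log2 fold 0.51) in wild-type and 4 were higher and 0 lower out of 16 (median log2 fold 0.37) in labelled-knockout. Isg15, a ubiquitin-like interferon target, had 15.4, 43.5, 26.1 and 57.9 CPM. In these 3 genes each treated library was above the untreated library of its genotype. Of homing genes, 7 were higher and 4 lower of 18 in wild-type and 5 and 1 in labelled-knockout. Over all genes, 8.67% were higher and 15.8% lower with treatment in wild-type, and 3.24% and 1.51% in labelled-knockout. The 4 lower homing genes in wild-type were thus near the share of all genes. In the other CD8 T cells the treatment folds of Ifitm1 were 3.88 and 0.71 and those of Cxcr6 2.20 and 0.88.

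Some progenitor genes were lower with treatment in mitotic cells. Of the progenitor and memory list, 0 were higher and 7 lower out of 15 (median log2 fold -0.54) in labelled-knockout, where 1.51% of all genes were lower, and 4 were higher and 4 lower out of 14 (median log2 fold -0.26) in wild-type, where 8.67% were higher and 15.8% lower. The difference between the genotypes was not tested. Id3, a repressor kept on in progenitor and memory T cells, had 49.4, 15.4, 32.6 and 9.91 CPM, with folds of -1.68 (95% interval -2.17 to -1.21) in wild-type and -1.72 (95% interval -2.26 to -1.20) in labelled-knockout. Slamf6, a receptor of progenitor T cells, had 102, 57.7, 73.7 and 26 CPM. Both were called lower with treatment in both genotypes. Tcf7 had 88.7, 61.1, 94.6 and 36.7 CPM and was called lower with treatment only in labelled-knockout at -1.37 (95% interval -1.65 to -1.09), against -0.54 (95% interval -0.81 to -0.27) in wild-type, and the difference between these folds was not tested. After thinning, 19.5, 13.98, 18.1 and 7.80% of mitotic cells had a Tcf7 UMI, against at most 1.82% of macrophage-rule cells. Klf2, a factor of circulating T cells, had 71.3, 136, 143 and 50.02 CPM, with 0.94 in wild-type and -1.52 in labelled-knockout. It had a UMI in 11.8, 20.7, 19.1 and 10.7% of thinned mitotic cells but in 15.5, 63.96, 46.04 and 49.6% of macrophage-rule cells, and the part of free macrophage RNA was not tested.

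Some genes differed the same way between genotypes with and without treatment, and these comparisons share no library either. In mitotic cells 10 genes were higher in labelled-knockout in both, 3.42% of those higher untreated and 19.2% of those higher with anti-PD-L1, and 25 were lower in both (6.63% and 30.5%). Of all genes, 6.31% were higher and 8.14% lower untreated and 1.13% and 1.77% with anti-PD-L1, so these shares were above those of all genes. Another 10 were higher untreated and lower with treatment, as many as were higher in both, and 7 the reverse. Those 10 were likewise 3.42% of the genes higher untreated, above the 1.77% of all genes lower with anti-PD-L1. No agreement of direction is therefore read from the counts of genes higher untreated. For treatment, 77 genes were higher in both genotypes (19.2% of the wild-type and 51.3% of the labelled-knockout list), 22 were lower in both (3.01% and 31.4%), and 6 went opposite ways. Shares of the wild-type list are set against all genes in labelled-knockout, of which 3.24% were higher and 1.51% lower. Shares of the labelled-knockout list are set against all genes in wild-type, of which 8.67% were higher and 15.8% lower.

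Among the genes lower in labelled-knockout both times was Cd81 (chr7:143052750-143067930), a tetraspanin of the cell surface. It had 69.05, 32.1, 12.1 and 8.92 CPM in mitotic cells, with log2 folds of -2.51 (95% interval -2.97 to -2.07) untreated and -1.85 (95% interval -2.44 to -1.29) with anti-PD-L1, so both labelled-knockout libraries were below both wild-type ones. Dapl1 (chr2:59484653-59505020), a gene of memory-like T cells, had 289, 117, 101 and 26.7 CPM, with folds of -1.51 (95% interval -1.68 to -1.35) and -2.13 (95% interval -2.45 to -1.81). Tox (chr4:6686353-6991557), a transcription factor of chronically stimulated T cells, had 113, 52.8, 45.8 and 32.2 CPM, with -1.30 (95% interval -1.56 to -1.05) and -0.71 (95% interval -1.05 to -0.38), and here too the wild-type libraries were the higher ones. Cd200, a surface ligand, had 64.5, 53.7, 21.1 and 24.5 CPM, and Gzmc and Gzmf, neighbours in the granzyme cluster, had folds of -3.59 and -2.82 untreated and -0.73 and -2.29 with treatment. Gzmf rested on few cells, 1 of which held 86.2% of its UMIs in labelled-knockout untreated and 1 50% in labelled-knockout anti-PD-L1, and without the top cell of each library it had 30.8, 24.5, 0.900 and 3.48 CPM. The 2 folds of Gzmc were then -4.64 and -1.28, and those of Cd81 -2.62 and -2.15. In the other CD8 T cells the folds of Cd81 were -2.70 and -2.63, and those of Tox -1.16 and -0.16. Higher both times were Tpm3-rs7 (4.91, 6.48, 35.3 and 44.1 CPM) and Gm10036 (22.3, 33.04, 97.7 and 179 CPM), which resemble copies of other genes and whose reads may be split between copies, so their values are uncertain. Y-linked and Xist UMIs differ between the same libraries, and their part was not tested gene by gene beyond the calls in cells with Xist and no Y-linked UMI.

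**Figure D5:**
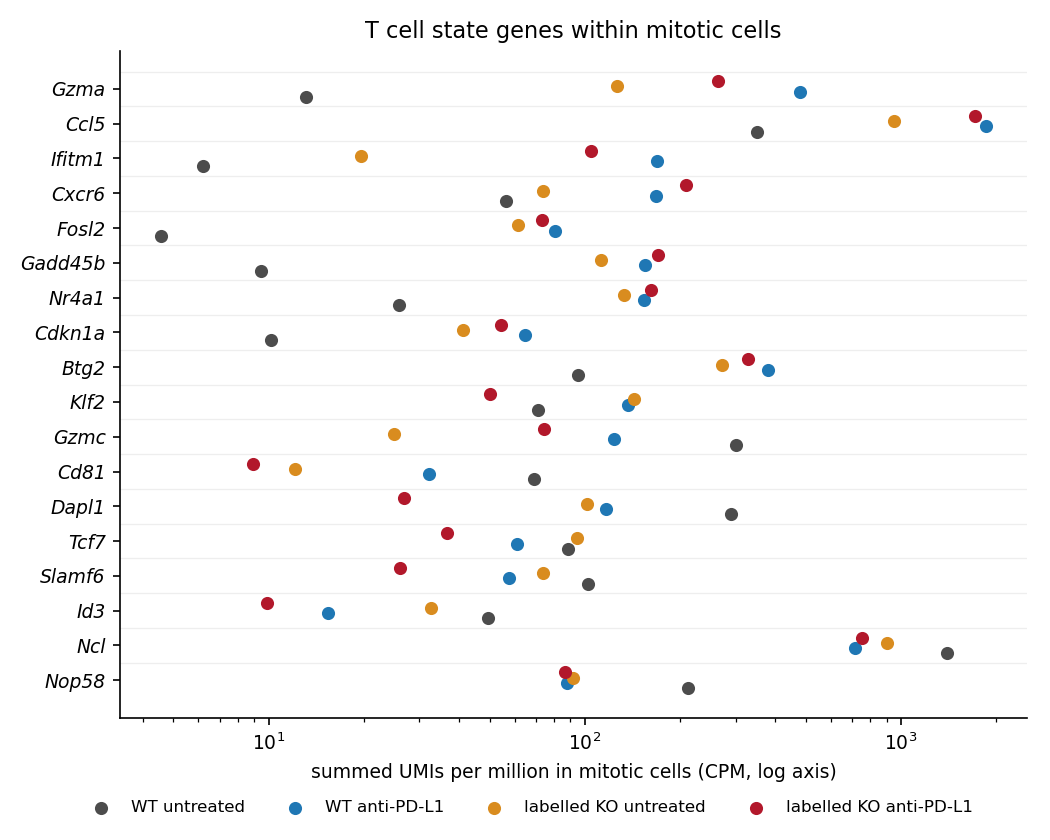
Summed level of 18 T cell genes in the mitotic cells of each library (x axis, CPM, log scale); each point is 1 library and small vertical offsets only separate the points. Wild-type untreated is the lowest point for Gzma at 13.1, Fosl2 at 4.58 and Gadd45b at 9.49 CPM, and the highest for Ncl at 1401 CPM; Cd81 is lowest in the 2 labelled-knockout libraries.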

How the data were processed

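The 4 single-cell libraries (10x Chromium 3′, version 2, per the labels' protocols) were deposited by the authors as tables of raw UMI counts, 1 row per barcode and 1 column per gene. The submitters' processing notes name mm10 and, with no role, DESeq2, HTSeq, HISAT2, bedtools, Bowtie2, Trim Galore 0.5.0 and Genrich 0.5. How reads were counted and cells called is not given in the sources used here. In each table the authors list most barcodes a second time with other counts, and the second listing was used (2384, 1680, 2312 and 1346 barcodes). Columns not shared by all tables, or with names ending in a hyphen and a digit from 1 to 4, were left out, which kept 27916 genes and dropped at most 0.00281% of UMIs.

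UMIs were summed over mitotic and over other CD8 T cells of a library and divided by their total. Folds have exact conditional and shares exact Clopper-Pearson binomial 95% intervals (scipy 1.17.1, numpy 2.4.6, pandas 2.3.3), which cover counting error only. UMIs of 1 cell are not independent, so the intervals are too narrow for genes held by few cells. For folds, 3 stood in for a count of 0. No test was run, since each group is 1 library. TMM (edgeR 4.0.16) and median-of-ratios (DESeq2 1.42.0) factors served as alternative scalings of the counts only. For shares of cells with a UMI, cells were thinned to 2600 UMIs, and shallower cells were left out. Gene calling was tested on simulated counts. Members and gene lists were chosen with earlier results of these data known. Named genes are the gate genes, the 12 highest and 12 lowest called genes of mitotic over other cells, the 10 highest and 10 lowest of each comparison between libraries found in at least 10% of mitotic cells of the higher library, the 3 highest and 3 lowest of each list, and a set of T cell and cell cycle genes. Promoters and gene spans come from RefSeq on GRCm38.p6.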

Additional observations from a re-analysis of the deposited data

Results flagged for a closer look

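Several genes went opposite ways in mitotic cells in comparisons of the same kind that share no library, and none of these differences was tested, since each group is 1 library. In labelled-knockout against wild-type, Gzma was higher untreated and lower with anti-PD-L1 (log2 folds 3.27 and -0.86), as were Fos, an AP-1 subunit (1.26 and -0.62), Tsc22d3, the glucocorticoid-induced leucine zipper (1.33 and -1.01), and Klf2 (1.00 and -1.45). The reverse held for the granzyme-inhibiting serpin family member Serpinb9b (-1.66 and 0.64), the stress kinase Oxsr1 (-1.04 and 0.67) and the chaperone Hspa1a (-1.25 and 0.95). With anti-PD-L1 against untreated, Tsc22d3 was higher in wild-type and lower in labelled-knockout (1.72 and -0.62), and so was Klf2 (0.94 and -1.52). Gzmc (-1.28 and 1.58) and Hspa1a (-1.46 and 0.74) were lower in wild-type and higher in labelled-knockout. Levels in mitotic cells were 49.7, 164, 125 and 80.98 CPM for Tsc22d3 and 141, 51.3, 59.3 and 99.1 CPM for Hspa1a, in the order of libraries used before.

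Signal of the gate was also found outside CD8 T cells. Of macrophage-rule cells, 13.5, 3.31, 5.41 and 9.56% held 4 or more gate UMIs. The share was highest in wild-type untreated, the library whose other CD8 T cells also held the most gate UMIs.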

How the results depend on the processing

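Depth limits these results, since cells of the treated libraries held more UMIs, and with 1 library per group no alternative measures the spread between animals. Over the named genes and alternatives checked, no called fold changed its direction. For mitotic over other cells, the gate genes and genes named only through a list were not among those checked. Of the values, 7792 stayed within a range set for each gene and 424 left it. Between libraries that range was the 95% counting interval of the main fold. For mitotic over other cells it ran from the lowest to the highest library fold. Part of the count of 7792 was fixed in advance. A changed floor alters which genes are tested and cannot move a fold. Leaving out 1 library cannot reverse a gene called in all 4, and the median then still lies between the lowest and highest library fold. The 7792 is therefore no measure of robustness. Of the shares and counts of called genes under alternatives, 90 stayed within the counting interval or within 1.5 times the main count and 46 did not, most of them counts. The mitotic shares were 40.8, 22.6, 35.01 and 30.1% with a gate of 6 UMIs, 38.2, 15.8, 26.6 and 18.5% after thinning, and 48.6% in wild-type untreated and 30.1% in labelled-knockout anti-PD-L1 where no macrophage or melanoma UMI was allowed. The order of the 4 shares was the same under these 2 complete settings. With the gate of 6, the share leaning to mitosis was 85.6% in wild-type untreated and 86.2% in labelled-knockout anti-PD-L1.

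Counts of called genes followed the floor, since fewer or more genes were then tested. With a floor of 50 CPM the higher and lower genes were 47 and 19 for mitotic over other cells, 118 and 184 and 13 and 27 for genotype untreated and with anti-PD-L1, and 187 and 396 and 85 and 20 for treatment in wild-type and labelled-knockout. With 5 CPM they were 208 and 61, 859 and 803, 366 and 293, 986 and 1258, and 463 and 271. Leaving out 1 library at a time gave 112 to 227 higher and 33 to 97 lower genes in mitotic over other cells, the most without wild-type untreated, and other cells with no gate UMI, an alternative chosen after seeing the data, gave 216 and 75. After thinning, 16 genes were lower there, of which only 8 were among the 36 of the full counts, and thinning raised the calls to 300 and 248 for genotype with anti-PD-L1 and to 303 and 205 for treatment in labelled-knockout; the cause was not tested. For genotype with anti-PD-L1, 31 genes were higher with TMM and 31 with median-of-ratios factors, 87 with no macrophage or melanoma UMI and 79 without the 2% deepest CD8 T cells. For treatment in wild-type, TMM gave 481 lower genes. The cells with Xist and no Y-linked UMI, and each gene without its top cell, were likewise chosen after seeing the data. No paired analysis was possible because each single-cell group is 1 library, and the replicate numbers 1 and 2 in the labels belong to the bulk samples, which were not analysed here.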
